A study of Mus musculus with 36 samples.

Results

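Kif4 and Ercc6l are X-linked genes whose proteins act on mitotic chromosomes, and they are described here through the share of their chromatin-associated RNA that came from the inactive X chromosome (Xi). They are 2 of the 252 genes in the deposited tables, 2 of 249 in the table without the K518E line and 2 of 242 in the table with it. They were chosen by their values at day 7, where the Xi share lay higher in the SMCHD1 KO, E147A and Y353C lines than in the respective controls. Values from these contrasts are therefore given as a description without a test. The contrasts of LRIF1 KO with Halo-SMCHD1 and of Halo-SMCHD1 with iXist-ChrX at day 7 use the same control libraries and are treated in the same way.

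The 36 libraries were made from chromatin-associated RNA (ChrRNA-seq) of 8 female mouse embryonic stem cell (mESC) lines, all Cast x 129S hybrids in which a doxycycline (dox)-responsive TetOn promoter drives Xist from the 129S X. The parental line is iXist-ChrX, and SMCHD1 KO (clone SmA3) lacks SMCHD1. Halo-SMCHD1 (clone G2) carries a Halo-tag on the native SMCHD1 protein and an eGFP-CIZ1 transgene in the Rosa26 locus, and was made in iXist-ChrX. LRIF1 KO (clone E8), which lacks the SMCHD1 partner LRIF1, and the ATPase domain mutants E147A (clone A7), Y353C (clone D4), G137E (clone H4) and K518E (clone A4) of SMCHD1 are on the Halo-SMCHD1 background. Each engineered line is thus represented by 1 clone, and a difference between lines cannot be told apart from a difference between clones. Cells were sampled as undifferentiated mESCs before induction, as mESCs after 24 h with 1 µg/ml dox, and after 5 or 7 days of monolayer differentiation with dox. At day 7 there were 3 libraries of Halo-SMCHD1 and of G137E and 2 of every other line. At day 5 there were 2 libraries each of Halo-SMCHD1, G137E and K518E. Before induction and at 24 h there was 1 library each of the 6 lines other than iXist-ChrX and SMCHD1 KO.

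Female mammals silence one X chromosome, and the RNA Xist starts this process by coating the chromosome in cis. SMCHD1 is a chromosomal ATPase that accumulates on the Xi during differentiation and is needed for the complete repression of a subset of X-linked genes. Kif4 encodes a chromokinesin, a microtubule motor that binds chromosome arms, works alongside condensin in shaping mitotic chromosomes and helps to organise the central spindle in anaphase. Ercc6l encodes the DNA translocase PICH, which coats the ultrafine DNA threads that join sister chromatids in anaphase and takes part in their resolution.

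The measurement was the fraction Xi/(Xi+Xa), the 129S reads over all allele-assigned reads of a gene, where Xa is the active Cast X. A value near 0.5 stands for equal output of both chromosomes and 0 for complete silencing. It is a share and not a level, so an unchanged value can hide parallel changes on both chromosomes. No read counts come with the fractions, which leaves the depth unknown and allows no counting interval. Xist itself, which only the 129S allele transcribes under dox, had a fraction of at least 0.997 in all 30 dox-treated libraries and of 0.881 to 0.995 in the 6 uninduced ones. Smchd1 and Lrif1 are not among the X-linked genes, so neither the knock-outs nor the cell identity could be checked in these data.

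Both genes lie proximal to Xist on mm10. Kif4 spans chrX:100626064-100727271 on the plus strand, a 101 kb gene body with 30 exons in the GENCODE transcript. Ercc6l spans chrX:102142819-102157091 on the minus strand, 14.3 kb with 2 exons. A gap of 1.42 Mb with 13 measured genes separates them, and the near end of Xist lies 2.73 Mb beyond the end of Kif4 and 1.30 Mb beyond that of Ercc6l. Reads over exons and introns were counted together. A transcribed Kif4 pseudogene, Kif4-ps, is annotated on chromosome 12, and only reads with a unique alignment were kept.

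The Kif4 promoter is shown because Kif4 starts close to an oppositely transcribed neighbour that was measured in the same libraries and because it is a cell cycle gene. In RefSeq (GRCm38.p6) the start of Kif4 is at 100626065 and that of Pdzd11, on the minus strand, at 100625941. The 123 bases between the starts, at chrX:100625942-100626064, are printed on the plus strand with the inverted CCAAT letters in capitals.
Kif4 upstream: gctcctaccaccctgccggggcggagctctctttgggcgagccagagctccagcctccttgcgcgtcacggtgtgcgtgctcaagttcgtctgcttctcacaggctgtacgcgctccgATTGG
A run of 30 bases just after the start, at chrX:100626072-100626101, holds TTTGAA, the core letters of the cell cycle genes homology region, here in capitals.
Kif4 start: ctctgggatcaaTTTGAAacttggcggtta
TTTGAA begins 19 bases after the Kif4 start. CCAAT, the letters bound by NF-Y, occurs on the minus strand with its leftmost base 5 bases before the start and on the plus strand 152 bases before it, and none of these matches overlap. Of 32851 RefSeq windows of 300 bases (250 before and 50 after a start), 17.9% held TTTGAA on either strand, 37.4% held CCAAT and 7.0% held both. The matches are a description of letters, not of binding. The promoter of Ercc6l was not analysed here.

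Before induction both genes were expressed about equally from both X chromosomes. The Kif4 fraction was 0.517 in Halo-SMCHD1, 0.522 in LRIF1 KO, 0.515 in E147A, 0.522 in Y353C, 0.509 in G137E and 0.529 in K518E. These values were close to each other and to the library medians over all genes, which ran from 0.514 to 0.524. The Ercc6l fraction was 0.575 in Halo-SMCHD1, 0.538 in LRIF1 KO, 0.571 in E147A, 0.499 in Y353C, 0.532 in G137E and 0.557 in K518E. Ercc6l thus leaned to the 129S allele in 5 of 6 lines and exceeded the library median in 5 of 6, with Y353C as the exception.

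After 24 h with dox, the 2 genes parted in the lines other than Halo-SMCHD1. In these bulk libraries, fewer cells with output from the Xi and less output per cell cannot be told apart. The Kif4 fraction was 0.228 in Halo-SMCHD1, 0.188 in LRIF1 KO, 0.227 in E147A, 0.195 in Y353C, 0.206 in G137E and 0.161 in K518E. All 6 lay below the median of their own library, and Kif4 stood at the 31st to 47th percentile of all genes. The Ercc6l fraction was 0.254 in Halo-SMCHD1, 0.285 in LRIF1 KO, 0.355 in E147A, 0.327 in Y353C, 0.380 in G137E and 0.252 in K518E. All 6 lay above the median of their library, at the 55th to 79th percentile. Ercc6l exceeded Kif4 in 6 of 6 lines, by 0.026 in Halo-SMCHD1 and by up to 0.173 in G137E. With 1 library per line at this stage, no test of a line was possible.

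Relative to the uninduced library of the same line, Kif4 kept 30.4% to 44.1% of its starting fraction at 24 h, and Ercc6l kept 44.2% to 71.3%. The median over all genes was 42.0% to 55.1%. Kif4 was below this median in 6 of 6 lines and Ercc6l above it in 5 of 6, the exception being Halo-SMCHD1 with 44.2% against 45.9%. The smaller remainder of Kif4 thus held after division by the starting share. Over all 36 libraries Ercc6l had the higher fraction in 31 and Kif4 in 5, and at days 5 and 7 the median gap was 0.010 and 0.015.

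**Figure D1:**
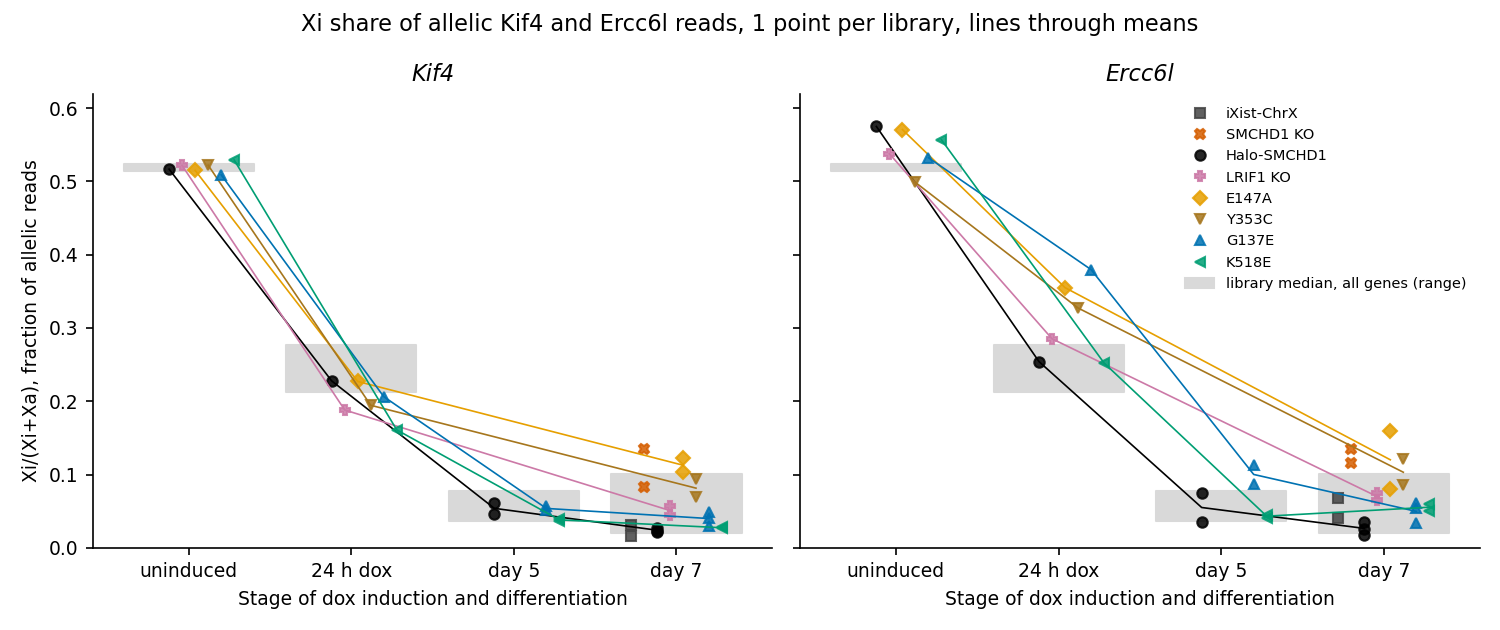
Fraction Xi/(Xi+Xa) of Kif4 (left) and Ercc6l (right) by stage, with 1 point per library, lines through the mean of each line and grey boxes for the range of library medians over all genes. At 24 h the Kif4 points lie between 0.161 and 0.228 and the Ercc6l points between 0.252 and 0.380.

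At day 5 only Halo-SMCHD1, G137E and K518E were sampled. The Kif4 fractions were 0.0613 and 0.0465 in Halo-SMCHD1, 0.0510 and 0.0565 in G137E, and 0.0373 and 0.0391 in K518E. Both K518E libraries lay below the libraries of the other 2 lines, which overlapped each other. The Ercc6l fractions were 0.0742 and 0.0359 in Halo-SMCHD1, 0.0878 and 0.113 in G137E, and 0.0412 and 0.0453 in K518E. Here both G137E libraries lay highest, and the K518E values lay between the 2 Halo-SMCHD1 libraries.

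At day 7 every line was sampled, including those not sampled at day 5. The Kif4 fractions were 0.0315 and 0.0168 in iXist-ChrX and 0.0829 and 0.134 in SMCHD1 KO. In Halo-SMCHD1 they were 0.0220, 0.0226 and 0.0276, in E147A 0.122 and 0.103, and in Y353C 0.0688 and 0.0941. These are the values that chose Kif4, and in each of the 3 mutant lines every library lay above every library of its control. LRIF1 KO, with 0.0447 and 0.0571, also had no overlap with Halo-SMCHD1, and both values were below all those of SMCHD1 KO, E147A and Y353C. The latter 3 lines chose the gene and LRIF1 KO did not, so this order is a description. G137E had 0.0492, 0.0294 and 0.0412, and K518E had 0.0269 and 0.0279.

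The Ercc6l fractions at day 7 were 0.0682 and 0.0402 in iXist-ChrX and 0.115 and 0.135 in SMCHD1 KO. In Halo-SMCHD1 they were 0.0352, 0.0181 and 0.0263, in E147A 0.0809 and 0.159, and in Y353C 0.0855 and 0.121. As for Kif4, the 3 mutant lines lay above their controls without overlap, and the 2 E147A libraries differed most from each other. LRIF1 KO had 0.0745 and 0.0653, above all 3 Halo-SMCHD1 libraries. G137E had 0.0613, 0.0338 and 0.0541, and K518E had 0.0507 and 0.0602.

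In fold terms, the mean Kif4 fraction was 4.50-fold that of iXist-ChrX in SMCHD1 KO, and 4.68-fold that of Halo-SMCHD1 in E147A, 3.38-fold in Y353C and 2.11-fold in LRIF1 KO. For Ercc6l the folds over Halo-SMCHD1 were 4.53 in E147A, 3.89 in Y353C and 2.63 in LRIF1 KO. The Ercc6l mean of SMCHD1 KO, 0.125 ± 0.0138 (SD, n = 2), stands against a higher control, 0.0542 ± 0.0198 (SD, n = 2) in iXist-ChrX against 0.0265 ± 0.0086 (SD, n = 3) in Halo-SMCHD1. Neither control stood apart for Kif4, with 0.0241 ± 0.0104 (SD, n = 2) in iXist-ChrX and 0.0241 ± 0.0031 (SD, n = 3) in Halo-SMCHD1. For Ercc6l all Halo-SMCHD1 libraries were below both iXist-ChrX libraries, as were 25.3% of all genes, and the iXist-ChrX replicate 1 reads were rebuilt from alignments by the submitters.

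The same direction was common on the chromosome. Libraries did not overlap and were higher for 27.7% of 249 genes in SMCHD1 KO against iXist-ChrX. The shares were 46.2% in E147A, 42.2% in Y353C and 21.3% in LRIF1 KO, each against Halo-SMCHD1. By limma with adjusted p under 0.05, calls over all genes made up 0.803% for SMCHD1 KO, 16.1% for E147A and 3.61% for Y353C. One of the E147A columns at day 7 bears a replicate number that is not among the labels and was used as an unnumbered library of that line and day. The 40 calls in E147A numbered 3 without it, 88 without its replicate 1 and 10 without Halo-SMCHD1 replicate 1. They made up 0% for LRIF1 KO, where 28 genes had an unadjusted p under 0.05, and 0% for Halo-SMCHD1 against iXist-ChrX, where 29 did. Nothing is read from these shares about Kif4 and Ercc6l, which were chosen on the first 3 contrasts. Within the libraries, Kif4 stood at the 67th to 71st percentile of all genes in SMCHD1 KO, the 53rd to 78th in E147A and the 63rd to 67th in Y353C, against the 24th to 32nd in iXist-ChrX and the 33rd to 53rd in Halo-SMCHD1. It stood at the 56th to 57th percentile in LRIF1 KO, the 46th to 68th in G137E and the 45th to 49th in K518E. Ercc6l stood at the 72nd to 77th percentile in SMCHD1 KO, the 67th to 72nd in E147A and the 69th to 78th in Y353C, against the 52nd to 60th in iXist-ChrX and the 25th to 64th in Halo-SMCHD1. It stood at the 60th to 73rd percentile in LRIF1 KO, the 53rd to 73rd in G137E and the 69th in K518E.

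Ordered by mean at day 7, the Kif4 shares ran from Halo-SMCHD1 and iXist-ChrX through K518E, G137E and LRIF1 KO to Y353C, SMCHD1 KO and E147A. Neighbours in this order overlapped except K518E with G137E and LRIF1 KO with Y353C. For Ercc6l the order was Halo-SMCHD1, G137E, iXist-ChrX, K518E, LRIF1 KO, Y353C, E147A and SMCHD1 KO. Only K518E with LRIF1 KO and LRIF1 KO with Y353C had no overlap. The 6 libraries of SMCHD1 KO, E147A and Y353C ran from 0.0688 to 0.134 for Kif4, with a median of 0.0987, and from 0.0809 to 0.159 for Ercc6l, with a median of 0.118. The 10 libraries of iXist-ChrX, Halo-SMCHD1, G137E and K518E ran from 0.0168 to 0.0492 and from 0.0181 to 0.0682. For each gene 1 LRIF1 KO library lay inside the lower range and the other between the ranges. The higher range is that of the lines that chose the genes, so the place of LRIF1 KO below it is a description.

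**Figure D2:**
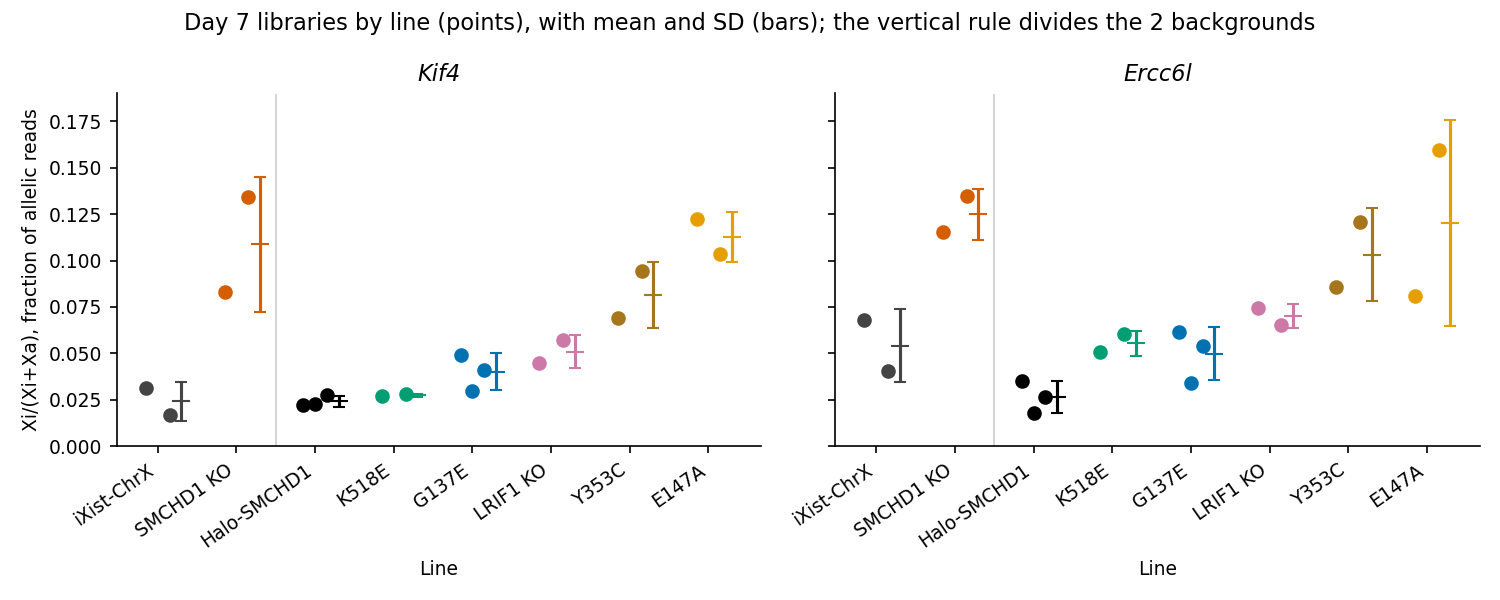
Fraction Xi/(Xi+Xa) of Kif4 (left) and Ercc6l (right) at day 7, with 1 point per library and a bar for the mean ± SD of each line. The vertical rule divides iXist-ChrX and SMCHD1 KO from the lines on the Halo-SMCHD1 background, and SMCHD1 KO, Y353C and E147A hold the highest means, from 0.0815 to 0.113 for Kif4 and from 0.103 to 0.125 for Ercc6l.

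The day 7 values were also set against the starting share of each line. Kif4 kept 4.66% of its uninduced fraction in Halo-SMCHD1, 5.18% in K518E and 7.85% in G137E. It kept 9.76% in LRIF1 KO, 15.6% in Y353C and 21.9% in E147A. For Ercc6l these shares were 4.61% in Halo-SMCHD1, 9.96% in K518E and 9.34% in G137E, and 13.0% in LRIF1 KO, 20.7% in Y353C and 21.1% in E147A. The median over all genes was 6.85% in Halo-SMCHD1, 6.08% in K518E and 7.34% in G137E, and 8.67% in LRIF1 KO, 10.5% in Y353C and 16.2% in E147A. Both genes were below the median gene in Halo-SMCHD1 and above it in G137E, LRIF1 KO, Y353C and E147A. In K518E Ercc6l was above it and Kif4 below. The day 7 values of Halo-SMCHD1, Y353C and E147A chose the genes, so their place against the median gene there is a description. No uninduced library exists here for SMCHD1 KO or iXist-ChrX.

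Comparisons of K518E and G137E did not choose the genes, and for these the differences were tested with limma over all 242 genes, in log2 odds of Xi reads with a pseudocount of 0.01. The 7 comparisons of 2 genes gave 14 tests, of which 0 passed an adjusted p of 0.05. Each gene's variance came from all day 5 and day 7 libraries of the table with K518E, Halo-SMCHD1 at day 7 included. Low values there helped to choose both genes, so standard errors, intervals and p-values are not independent of that choice. With only the compared libraries, which leave Halo-SMCHD1 at day 7 out, none of the 14 passed. The lowest limma adjusted p was then 0.140, for Ercc6l in K518E against G137E at day 5. All intervals are 95% intervals of the single difference, not adjusted for the number of genes, and assume normal errors of the log2 odds. The study's reporting summary describes the replicates as independent repeats of 1 clone, so p-values measure the spread between repeats of a clone.

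Against Halo-SMCHD1 at day 5, the Kif4 share in K518E was 0.0382 ± 0.0013 (SD, n = 2) and that in Halo-SMCHD1 0.0539 ± 0.0104 (SD, n = 2). The log2 odds differed by -0.42 (95% interval -0.95 to 0.11, limma adjusted p = 0.358). Both K518E libraries were lower, as held for 60.7% of all genes, and the median difference over all genes was -0.46. For Ercc6l the difference was -0.24 (-1.07 to 0.58, adjusted p = 0.714) with overlapping libraries. Kif4 thus lay close to the median gene. Over all genes limma called 0.413%, a single gene that was named after its values were seen (Rab39b, higher in K518E).

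G137E and Halo-SMCHD1 at day 5 had nearly the same Kif4 mean, with a difference of 0.01 (-0.53 to 0.54, adjusted p = 1.0). The interval still allows a change of 0.5 log2 units in either direction. For Ercc6l, G137E had 0.100 ± 0.0175 (SD, n = 2) and Halo-SMCHD1 0.0551 ± 0.0271 (SD, n = 2). This was a difference of 0.89 (0.06 to 1.71, adjusted p = 1.0) with both G137E libraries higher, as in 11.6% of all genes. Limma called 0% of genes in this comparison, and 7 genes had an unadjusted p under 0.05. The median difference over all genes was 0.03.

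K518E against G137E compares the 2 mutants that have raised ATPase activity in vitro. At day 5 Kif4 differed by -0.43 (-0.96 to 0.11, adjusted p = 0.367) and Ercc6l by -1.13 (-1.96 to -0.30, adjusted p = 0.233). Both genes were lower in both K518E libraries, and so were 56.6% of all genes, with a median difference of -0.49. Limma called 0.413% of genes, again Rab39b. At day 7 Kif4 differed by -0.42 (-0.90 to 0.07, adjusted p = 0.720) and was lower without overlap, as were 16.1% of genes. Ercc6l differed by 0.17 (-0.59 to 0.92, adjusted p = 0.899) with overlapping libraries. Limma called 0% of genes at day 7, where 17 had an unadjusted p under 0.05.

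From day 5 to day 7, Kif4 in K518E went from 0.0382 to 0.0274, a difference of -0.38 (-0.91 to 0.15, adjusted p = 0.931). Both later libraries were lower, as for 42.1% of all genes. Ercc6l in K518E went the other way, from 0.0432 ± 0.0029 (SD, n = 2) to 0.0555 ± 0.0068 (SD, n = 2). Both day 7 libraries were above both day 5 libraries, a direction shared by 6.61% of genes, but the difference of 0.31 (-0.51 to 1.14, adjusted p = 0.931) did not pass the test. Limma called 0.413% of genes, Rab39b alone.

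In G137E, Kif4 went from 0.0538 ± 0.0039 (SD, n = 2) to 0.0399 ± 0.0100 (SD, n = 3), a difference of -0.39 (-0.88 to 0.09, adjusted p = 0.240). Ercc6l went from 0.100 ± 0.0175 (SD, n = 2) to 0.0497 ± 0.0143 (SD, n = 3), a difference of -0.98 (-1.74 to -0.23, adjusted p = 0.092). For both genes all 3 later libraries were below both earlier ones, as for 46.3% of all genes. Limma called 7.44% of genes, all 18 of them lower, and the median difference was -0.64. Without replicate 1 or 2 of either day 0 genes were called, and without day 7 replicate 3 there were 47. The Ercc6l difference passed the threshold with a pseudocount of 0.05 (-0.67, adjusted p = 0.0435) and on untransformed fractions (-0.0504, adjusted p = 0.0242), while over all alternatives its adjusted p ran up to 0.381.

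The day change in K518E minus that in G137E was 0.01 for Kif4 (-0.71 to 0.73, adjusted p = 1.0) and 1.30 for Ercc6l (0.18 to 2.42, adjusted p = 0.570). The median over all genes was 0.41, and limma called 0.413% of genes, Rab39b. In every comparison that called Rab39b its difference had the same size, 2.03 in log2 odds. All of these comparisons hold K518E at day 5, so the calls rest on the same libraries and are not separate results. In Halo-SMCHD1 both genes were lower in all 3 day 7 libraries than in both day 5 libraries, with means of 0.0539 and 0.0241 for Kif4 and of 0.0551 and 0.0265 for Ercc6l. The median over all genes in this line was 13.4% of the uninduced fraction at day 5 and 6.85% at day 7. The share of all genes without overlap was not computed for this line. The Halo-SMCHD1 day 7 libraries were among those that chose the genes, and the change of the 2 genes was not tested.

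**Figure D3:**
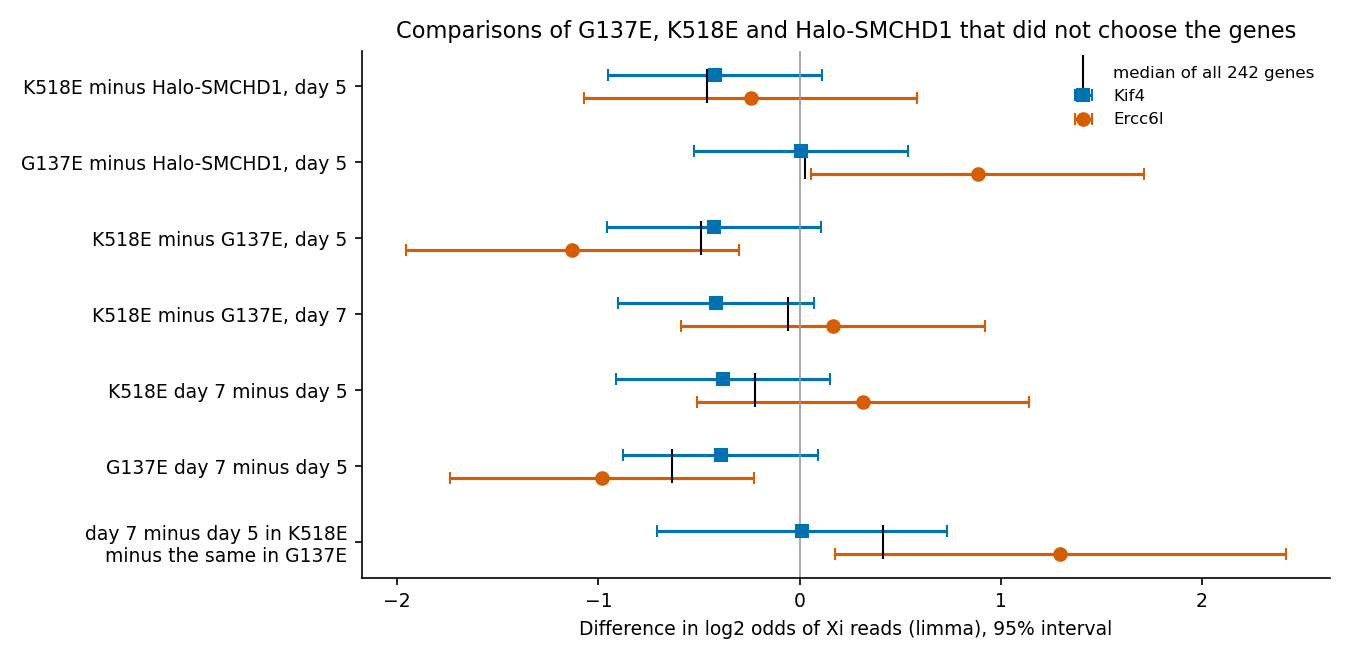
Differences in log2 odds of Xi reads for Kif4 (squares) and Ercc6l (circles) in the 7 tested comparisons, with 95% intervals from limma and a black tick at the median of all 242 genes. Kif4 lies between -0.43 and 0.01 and Ercc6l between -1.13 and 1.30, and no adjusted p is under 0.05.

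Other X-linked genes of mitosis and of chromatin and replication were followed as 2 lists, which were chosen with earlier results of these data known. Of 11 names in the list of mitosis and cohesion, 4 were measured, namely Stag2 (a cohesin subunit), Hdac8 (the deacetylase of cohesin), Haus7 (a subunit of the augmin complex of the spindle) and Usp9x (a deubiquitinase). Of 16 names in the list of chromatin and replication, 10 were measured. In E147A against Halo-SMCHD1 at day 7, 1 of 4 and 2 of 10 were called higher and none lower, where 16.1% of all genes were called. Haus7 was higher by 2.08 ± 0.47 (SE; limma adjusted p = 0.0134) in log2 odds, with mean fractions of 0.0280 in Halo-SMCHD1 and 0.124 in E147A. Brcc3, a deubiquitinase of DNA repair complexes, was higher by 1.45 ± 0.33 (SE; adjusted p = 0.0134), and Taf1, a subunit of the general transcription factor TFIID, by 0.85 ± 0.20 (SE; adjusted p = 0.0164).

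The median difference in E147A was 0.97 over the mitosis list, 0.68 over the chromatin list and 0.87 over all genes. In SMCHD1 KO, Y353C and LRIF1 KO no listed gene was called, with mitosis medians of 0.36, 0.70 and 0.28 and chromatin medians of 0.20, 0.71 and 0.50. The medians over all genes were 0.26, 0.52 and 0.26. From day 5 to day 7 in G137E, Stag2 was lower by 1.36 ± 0.32 on the log2 odds scale (SE; adjusted p = 0.0394), from 0.0750 to 0.0262, and was the only 1 of the 14 measured listed genes called in any comparison of K518E or G137E, where 7.44% of all genes were called between the G137E days. A fit restricted to the libraries being compared called 0 listed genes in E147A and 0 between the G137E days. Without Halo-SMCHD1 replicate 1 or the unnumbered E147A library, 0 listed genes were called in E147A, and without E147A replicate 1 there were 8. Without replicate 1 or 2 of G137E at either day, 0 were called between its days.

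The neighbourhood of the 2 genes held both silent and residually active genes. Pdzd11, which faces Kif4 head to head with 156 bases between the annotated ends in the tables, had 0.0452 ± 0.0129 (SD, n = 3) in Halo-SMCHD1, 0.0612 ± 0.0244 (SD, n = 2) in Y353C and 0.0489 ± 0.0034 (SD, n = 2) in E147A, with overlapping libraries. On the other side of Kif4, Dlg3 had 0.0041 ± 0.0047 (SD, n = 3) in Halo-SMCHD1, 0.0127 ± 0.0039 (SD, n = 2) in Y353C and 0.0142 ± 0.0201 (SD, n = 2) in E147A. Dlg3 was higher without overlap in Y353C against Halo-SMCHD1, while its E147A libraries overlapped those of Halo-SMCHD1. The E147A means of both adjacent genes exceeded those of Halo-SMCHD1 by less than that of Kif4, which was chosen partly by this contrast. Nothing is read from that difference. Pdzd11 had 0.0235 ± 0.0021 (SD, n = 2) in iXist-ChrX against 0.0616 ± 0.0027 (SD, n = 2) in its knock-out, with no overlap. In LRIF1 KO the Pdzd11 mean was 0.0068 ± 0.0096 (SD, n = 2), below that of Halo-SMCHD1. The Dlg3 mean there was 0.0042 ± 0.0059 (SD, n = 2), close to that of Halo-SMCHD1.

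Beside Ercc6l, Rps4x (a protein of the small ribosomal subunit) went the way of its neighbour, with 0.0314 ± 0.0080 (SD, n = 3) in Halo-SMCHD1, 0.0689 ± 0.0166 (SD, n = 2) in E147A, 0.0641 ± 0.0226 (SD, n = 2) in Y353C and 0.0427 ± 0.000056 (SD, n = 2) in LRIF1 KO, all without overlap. The knock-out had 0.102 ± 0.0347 (SD, n = 2) for Rps4x against 0.0521 ± 0.0102 (SD, n = 2) in iXist-ChrX, again without overlap. Pin4, on the other side, stayed far more active, with 0.416 ± 0.0617 (SD, n = 3) in Halo-SMCHD1, 0.320 ± 0.114 (SD, n = 2) in Y353C and 0.360 ± 0.104 (SD, n = 2) in E147A, both means below that of the control. In LRIF1 KO Pin4 had 0.415 ± 0.0839 (SD, n = 2), close to the Halo-SMCHD1 mean. In iXist-ChrX Pin4 had 0.321 ± 0.0708 (SD, n = 2), and the SMCHD1 knock-out was higher without overlap, at 0.510 ± 0.0845 (SD, n = 2).

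Within 1 Mb of either gene 21 others were measured, and their day 7 means ran from 0 to 0.416 in Halo-SMCHD1. Their median was 0.0271 in Halo-SMCHD1, 0.0208 in LRIF1 KO, 0.0489 in E147A and 0.0515 in Y353C, and 0.0616 in SMCHD1 KO against 0.0265 in iXist-ChrX. Libraries did not overlap and were higher for 12 of 21 in SMCHD1 KO, 10 in E147A, 9 in Y353C and 6 in LRIF1 KO, where the shares over all genes were 27.7%, 46.2%, 42.2% and 21.3%. Limma called 2 of 21 in E147A, against 16.1% of all genes, Taf1 and, named after its values were seen, Ogt, the enzyme that adds O-GlcNAc to proteins. Ogt was higher by 1.00 (adjusted p = 0.0168). It called none of the 21 in SMCHD1 KO, Y353C or LRIF1 KO.

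**Figure D4:**
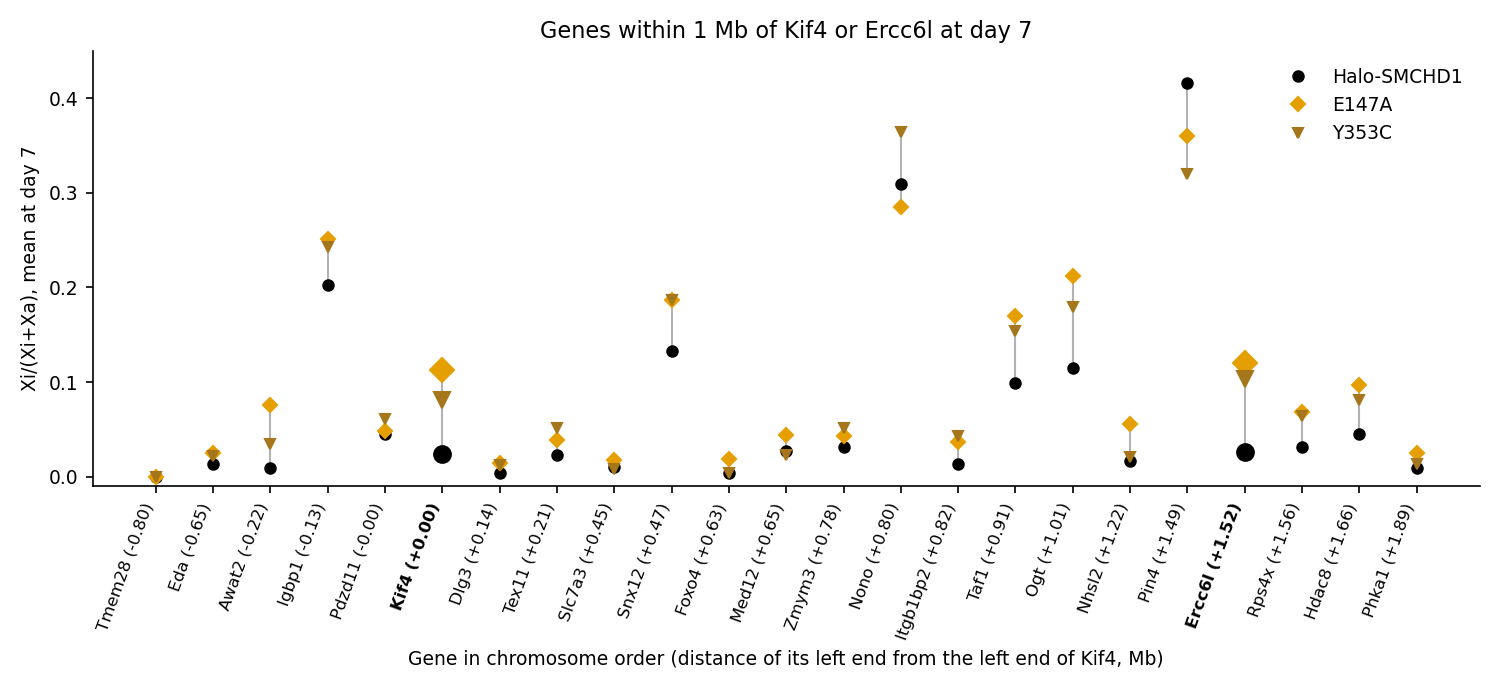
Mean fraction Xi/(Xi+Xa) at day 7 in Halo-SMCHD1 (circles), E147A (diamonds) and Y353C (triangles) for Kif4, Ercc6l and the 21 genes within 1 Mb of either, in chromosome order with the distance of the left end of each gene from that of Kif4. Kif4 runs from 0.0241 to 0.113 and Ercc6l from 0.0265 to 0.120, while Pdzd11 runs from 0.0452 to 0.0612.

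The genes whose fractions ordered the 20 differentiated libraries of the table without K518E most like Kif4 were Bcap31 and Hdac8 (Spearman 0.907 each) and Flna (0.899). Those most like Ercc6l were Bcap31 (0.890), Prkx (0.889) and Gripap1 (0.869). Kif4 and Ercc6l had a Spearman correlation of 0.854 with each other, which ranked Kif4 4th for Ercc6l and Ercc6l 8th for Kif4, and the median over all genes was 0.402 for both. These libraries share lines, days and clones and include the contrasts that chose the genes, so the values are a description. At day 7 Flna, which encodes the actin crosslinker filamin A, had 0.0229 ± 0.0012 (SD, n = 3) in Halo-SMCHD1, 0.105 ± 0.0125 (SD, n = 2) in E147A, 0.0892 ± 0.0101 (SD, n = 2) in Y353C and 0.121 ± 0.0210 (SD, n = 2) in SMCHD1 KO. Bcap31, an endoplasmic reticulum membrane protein, had 0.0371 ± 0.0064 (SD, n = 3), 0.0958 ± 0.0164 (SD, n = 2), 0.0741 ± 0.0063 (SD, n = 2) and 0.102 ± 0.0446 (SD, n = 2) in the same lines.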

How the data were processed

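Allelic ChrRNA-seq was compared over 36 libraries, grouped by the sample labels. Columns of iXist-ChrX are headed by a clone name not found in the labels, so elimination, with day and replicate number, gave their samples. A day 7 column of E147A is numbered 3, whereas the labels number that line's day 7 libraries 1 and 2, so it was used by line and day as an unnumbered library. Per the study's methods, the authors removed rRNA reads with bowtie2, used STAR to align what remained to mm10 with SNPs masked, kept unique alignments, split alleles with SNPsplit and counted strand-specifically over gene bodies with featureCounts. The authors deposited a fraction, Xi/(Xi+Xa), per gene and library for genes with at least 10 reads over SNPs, with no scaling between libraries and no pooling. The 239 genes and 14 libraries in both tables had the same values. Comparisons of K518E and G137E use the table with K518E, and all others the table without it. No filter was applied.

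Fractions r were tested as log2((r + 0.01)/(1 - r + 0.01)) with limma 3.58.1 (lmFit, eBayes) in R 4.3.3, in 1 fit per table over its day 5 and day 7 libraries, without covariates, and Benjamini-Hochberg adjustment over all genes at 0.05. The fit was run on simulated data with planted differences larger than any found for Kif4 or Ercc6l. That run gives no measure of the power to detect smaller differences. Other values came from pandas 2.3.3, scipy 1.17.1 and numpy 2.4.6 in Python 3.11.15, and figures from matplotlib 3.10.9. Kif4 and Ercc6l, the lists and the tests were chosen with earlier results of these data known. Genes named are both members, their adjacent genes, for each the 3 most alike by Spearman correlation, and listed genes past the threshold. Rab39b and Ogt, and Xist as a check, fall outside this rule. Alternatives were other pseudocounts, untransformed fractions, genes with 0.25 to 0.75 before induction, only the compared libraries, trended robust variance, a replicate block, leaving out each library, the other control line, division by the uninduced value and Pearson correlation.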

Additional observations from a re-analysis of the deposited data

Results flagged for a closer look

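Ercc6l went in opposite directions between days 5 and 7 in K518E and in the other lines sampled on both days. In K518E both day 7 libraries (0.0507 and 0.0602) were above both day 5 libraries (0.0412 and 0.0453), while in G137E and in Halo-SMCHD1 every day 7 library was below every day 5 library. Of all genes, 6.61% were higher at day 7 without overlap in K518E and 46.3% lower in G137E. The share was not computed for Halo-SMCHD1. Against G137E the day changes differed by 1.30 in log2 odds, which did not pass the test over all genes (limma adjusted p = 0.570). Against Halo-SMCHD1 the changes in mean fraction differed by 0.0408, and this difference was not tested. The Halo-SMCHD1 day 7 libraries were among those that chose Ercc6l for low values there, so the fall in that line is only a description. Each change rests on 2 or 3 libraries per day.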

How the results depend on the processing

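Of 168 recomputed values of the 14 tested differences, 156 kept their direction and their side of the threshold, 10 turned direction and 2 passed the threshold. Both of the latter are the Ercc6l day change in G137E, with a pseudocount of 0.05 (-0.67) and on untransformed fractions (-0.0504). In the comparison of K518E with Halo-SMCHD1 at day 5, leaving out single libraries moved Ercc6l between -0.71 and 0.22, the latter without Halo-SMCHD1 replicate 1. For Kif4 in G137E against Halo-SMCHD1 at day 5 the range was -0.17 to 0.18, and untransformed fractions gave -0.000101. For Ercc6l in K518E against G137E at day 7 it was -0.0536 to 0.32, and for the Kif4 difference of day changes -0.16 to 0.15, with -0.010 at a pseudocount of 0.001. These Kif4 differences are near 0 and had no settled direction.

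For the untested day 7 differences in fraction, leaving out 1 library gave 0.0588 to 0.110 for Kif4 and 0.0567 to 0.0847 for Ercc6l in SMCHD1 KO, 0.0792 to 0.0981 and 0.0543 to 0.133 in E147A, 0.0447 to 0.0700 and 0.0590 to 0.0943 in Y353C, and 0.0206 to 0.0330 and 0.0388 to 0.0479 in LRIF1 KO. For Halo-SMCHD1 minus iXist-ChrX it gave -0.0074 to 0.0073 and -0.0416 to -0.0137. With the other control line, Ercc6l differed by 0.0983 in SMCHD1 KO, 0.0490 in Y353C and 0.0157 in LRIF1 KO.

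Genes called between the days in G137E (18) numbered 0 with a pseudocount of 0.001, with only the compared libraries and without G137E replicate 1 or 2 of either day, and 42 to 50 with a pseudocount of 0.05, with untransformed fractions or without day 7 replicate 3. Calls in E147A (40) ran from 3 without its unnumbered library to 88 without its replicate 1, with 10 without Halo-SMCHD1 replicate 1, 19 with a pseudocount of 0.001 and 1 with only the compared libraries. Those in Y353C (9) ran from 0 to 1 without Halo-SMCHD1 replicate 1 or either Y353C library and were 0 with only the compared libraries, those in SMCHD1 KO (2) ran from 0 to 6, and those in the other comparisons, with 0 or 1 call, from 0 to 2. Whether the replicate numbers pair the libraries is not settled here. The study's reporting summary states that wells of a biological replicate came from the same batch of cells. In groups of 2 libraries the deviations mirror each other, so the pairs that follow are not independent. Same-numbered deviations correlated at -0.21 to 0.24 over 31 pairs in the table with K518E, where 7 were above 0.1, and at -0.28 to 0.26 over 65 pairs in the table without it, where 22 were. A replicate block left no tested member called (Ercc6l day change in G137E -1.02, adjusted p = 0.0640), and moved the calls from 18 to 56 there and from 40 to 11 in E147A. It left 0 of the 3 listed genes called in E147A and called 4 between the days in G137E. Of the genes most like Kif4 and Ercc6l, 1 of 3 each was kept under Pearson correlation of log2 odds. The causes were not tested. Depth is unknown and limits every low fraction.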
